A study of Mus musculus with 30 samples.

Results

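Lysosomal genes were followed in microglia and astrocytes sorted from the spinal cord of mice with experimental autoimmune encephalomyelitis (EAE), an induced autoimmune disease of the central nervous system. The 48 protein-coding genes were chosen by name from a table of 30952 genes, and all 48 were found there. They comprise 22 lysosomal hydrolases with their activators and luminal partners, 8 membrane proteins (counting the luminal cholesterol carrier Npc2 beside its partner Npc1), 16 subunits and accessory proteins of the v-ATPase, and the transcription factors Tfeb and Tfe3. Young adult female C57BL/6 mice were either naive (4 libraries of each cell type) or immunized with MOG35-55 and, from a clinical score around 1, dosed BID by gavage for 3 days with vehicle, 20% Captisol (6 libraries of each), or with the RIPK1 kinase inhibitor GSK'547 at 50 mg/kg (5 of each, EAE-RIPK1inh). Each cell type thus had 15 libraries, and inhibitor without EAE was not among the groups. Microglia were gated as CD11b+CD45int CX3CR1+ and astrocytes as GLAST+CD11b-CD45-CD140a-. The study counts the groups in mice, as many as there are libraries of a cell type, so that microglia and astrocytes appear to share mice. The labels do not say which libraries share one, nor do they pair libraries of different groups, and the fits treat all libraries as independent.

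The lysosome is the acidic compartment in which cells degrade what they take up and what they retire by autophagy. Its soluble hydrolases cut sugars, lipids and proteins and work at low pH, which the v-ATPase sustains by pumping protons through its membrane sector (V0) with the energy of ATP hydrolysed in its cytosolic sector (V1). Membrane proteins such as Lamp1 and Lamp2 line the compartment, Npc1 and Npc2 carry cholesterol out of it, and the MiT/TFE factors Tfeb and Tfe3 switch on many lysosomal genes through E-box sequences of the CLEAR type. In the spinal cord microglia clear myelin debris by this route, and inherited loss of many of these enzymes causes storage disease with neuronal damage.

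Values are log2 FPKM (fragments scaled to exon length and library total), so that levels of different genes can be set side by side per length. The authors scaled them so that every library holds the same distribution, from 0 to 15.34. Read depth cannot be recovered from such values. Above the stretch of undetected genes lay 8710 to 20398 genes in a microglia library and 6728 to 22980 in an astrocyte library. The top of that stretch differed by library, from 0.05 to 1.74 log2 FPKM in microglia and from 0.00 to 2.74 in astrocytes. Values within the stretch follow the order in which genes are listed and carry no level. In microglia libraries the mean of 10 microglia markers was 7.18 to 10.62 and that of 8 astrocyte markers 0.99 to 2.23. In astrocyte libraries the same means were 0.87 to 3.45 and 8.30 to 9.64, while 7 oligodendrocyte markers stood at 5.58 to 9.58 and 6 neuron markers at 4.34 to 5.82. A fold above 1.5 with an unadjusted limma p under 0.05 makes a call here, and "rose" and "fell" refer to calls. Adjusted p is the Benjamini-Hochberg value over all genes tested.

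RefSeq promoters (GRCm38.p6, 250 bases before to 50 after the start site) were at hand for 41 of the 48 genes, all but Asah1, Npc1, Atp6v0d2, Atp6v1b2, Atp6v1c1, Atp6v1g1 and Atp6v1h. The E-box CACGTG, which reads the same on both strands, occurred in the promoters of 13 of these 41 genes (31.7%), against 8.09% of 27025 genes with a promoter entry. All 13 also held the extended form TCACGTG on either strand, which contains the first motif, against 4.29% of genes. The 13 were 7 of 21 hydrolases, 2 of 7 membrane genes, 4 of 11 v-ATPase genes and neither transcription factor. The stretches below belong to 3 members that were called in EAE (Gla, Glb1 and Atp6v0b) and to Lamp1, which held the most copies, and capitals mark the E-box.
Gla: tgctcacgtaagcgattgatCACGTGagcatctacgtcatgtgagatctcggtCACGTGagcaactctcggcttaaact
Glb1: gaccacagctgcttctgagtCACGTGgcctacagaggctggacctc
Atp6v0b: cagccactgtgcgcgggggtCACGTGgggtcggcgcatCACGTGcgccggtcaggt
Lamp1: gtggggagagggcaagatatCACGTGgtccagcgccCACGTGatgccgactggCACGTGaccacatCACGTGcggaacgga
The Gla stretch lies at chrX:134601174-134601252 on the minus strand, with 2 copies that begin at -227 and -194 from the start site. That of Glb1 is chr9:114401010-114401055 on the plus strand, with 1 copy at -48. That of Atp6v0b is chr4:117887330-117887385 on the minus strand, with 2 copies at -36 and -18. That of Lamp1 is chr8:13159080-13159160 on the plus strand, with 4 copies between -61 and -15. A match describes letters only: of the 13 genes with an E-box, 2 rose and 1 fell in EAE microglia, and of the 28 without one 4 rose and 5 fell. In EAE astrocytes 0 rose and 1 fell among the 13, and 1 rose and 9 fell among the 28. Of all genes 6.13% rose and 5.86% fell in EAE microglia, and 2.69% rose and 4.01% fell in EAE astrocytes. Among genes with a mean of at least 1 log2 FPKM these shares were 16% and 12.9%, and 6.93% and 9.02%.

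In naive mice 21 of the 48 genes were higher in microglia than in astrocytes, with the largest differences for Cd68, a macrophage sialomucin of the lysosomal membrane, Lgmn, the asparaginyl endopeptidase legumain, and Tcirg1, the a3 subunit of the V0 sector. Lgmn was the most abundant member in naive microglia, at 13.34 ± 0.62 log2 FPKM (SD, n = 4), followed by Cd68 at 10.31 ± 0.31, Lamp1 at 9.26 ± 0.26, Grn at 9.18 ± 0.77 and Hexa at 9.09 ± 0.38. Lamp1, Grn and Hexa differed among themselves by less than their spread. In naive astrocytes the order was led by Cd63 at 8.89 ± 0.26 log2 FPKM, the ganglioside activator Gm2a at 8.66 ± 0.33 and Lamp1 at 8.59 ± 0.61, again within their spread. Atp6v0d2, the d2 isoform of V0 known from osteoclasts and macrophages, was the lowest member in both, at 0.14 ± 0.14 in microglia and 0.11 ± 0.04 in astrocytes. Only 1 of the 4 naive libraries of each cell type was above its undetected stretch for Atp6v0d2, so these means are not measured levels. A signal above the undetected stretch was present in all 15 libraries for 44 members in microglia and for 28 in astrocytes.

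The 21 higher and 0 lower members compare with 10% of all genes called higher and 9.64% lower (19.7% together), and with 22.6% and 19.3% of genes with a mean of at least 1 log2 FPKM. At an adjusted p under 0.05 there were 14 higher and 0 lower, against 5.94% and 5.93% of all genes and, in both directions together, 27.9% of genes with a mean of at least 1. The libraries did not overlap for 17 members above and 0 below, against 6.71% and 5.61%. The 21 called members comprised 10 of 22 hydrolases (Lgmn, Man2b1, Grn, Gusb, Hexa, Naglu, Manba, Glb1, Asah1 and Ppt1). The rest of the 21 were 4 of 8 membrane genes (Cd68, Mcoln1, Lamp2 and Npc2), 5 of 16 v-ATPase genes (Tcirg1, Atp6v0b, Atp6v1c1, Atp6v1g1 and Atp6ap1) and both transcription factors. The call of Tfeb was lost in 5 of 30 fits without 1 library, with quality weights (1.22) and with an offset of 4 added before the logarithm (0.76), and the naive astrocytes read 0.22, 0.01, 4.03 and 0.00 for it. With quality weights 23 were higher and 3 lower, where 6863 of 30952 genes were called. With each library centred on its own median, 18 were higher and 2 lower. The median log2 difference was 1.29 for hydrolases, 1.32 for membrane genes and 0.14 for v-ATPase genes. It was -0.01 over all genes tested and 0.20 over genes with a mean of at least 1. These medians are a description without a test, and they put the pump closest to equal in both cell types.

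Cd68 read 10.38, 10.03, 10.13 and 10.73 log2 FPKM in the naive microglia and 0.00, 2.32, 2.95 and 0.00 in the naive astrocytes. The log2 difference was 9.00 ± 0.79 (SE, adjusted p 9.58e-10), and its size rests on the offset of the logarithm because 2 astrocyte libraries are listed at 0. Lgmn read 13.71, 13.71, 12.43 and 13.51 in microglia and 7.93, 6.11, 8.20 and 7.11 in astrocytes, a log2 difference of 6.00 ± 0.46 (SE, adjusted p 6.39e-11). For Tcirg1 the microglia read 7.32, 8.26, 8.99 and 8.15 and the astrocytes 3.70, 0.03, 5.73 and 2.54, a difference of 5.18 ± 1.08 (SE, adjusted p 9.87e-04). Naive astrocyte library 2, at 0.03, was within its undetected stretch for Tcirg1, and without it the difference was 4.19 and still called. In these 3 genes every microglia library lay above every astrocyte library, and the exact permutation p was 0.0286 for each, the smallest that 4 against 4 allow. The members that leaned most toward astrocytes were arylsulfatase A (Arsa, log2 difference -1.26), the catalytic V1 subunit Atp6v1a (-1.24) and acid alpha-glucosidase (Gaa, -1.13), and none of the 3 was called.

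**Figure D1:**
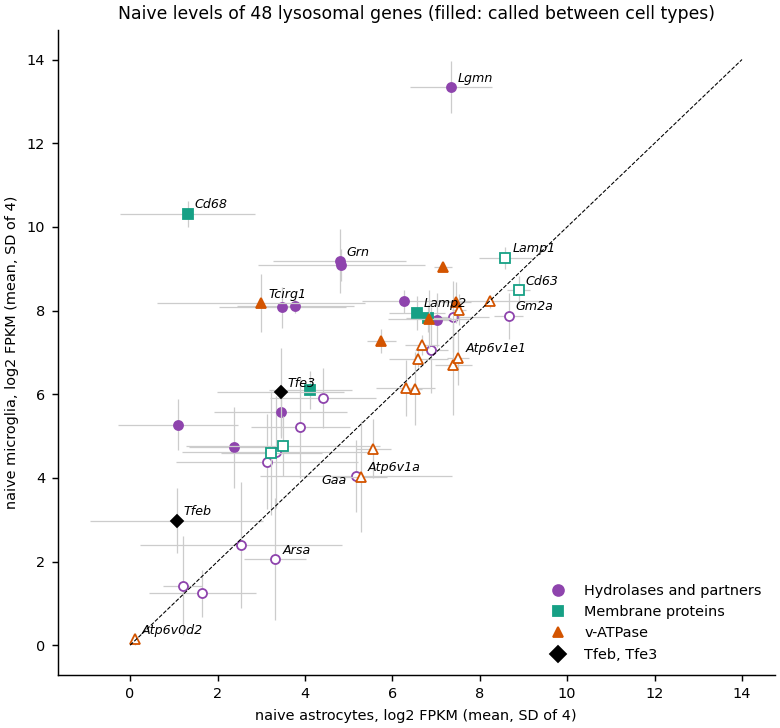
Mean log2 FPKM of each of the 48 members in naive astrocytes (horizontal) and naive microglia (vertical), with SD over 4 libraries, filled where the cell types differed at the cutoff and with the line of equal level dashed. Cd68, Lgmn and Tcirg1 lie farthest above the line, and most v-ATPase genes other than Tcirg1 lie near it.

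Among the other lysosomal genes the same comparison called 10 higher and 1 lower of 20 further hydrolases, 5 higher and 1 lower of 20 further membrane genes, 8 higher and 0 lower of 13 cathepsins, and 2 higher and 1 lower of 14 nutrient-sensing genes (Ragulator, Rag GTPases, mTORC1 and further MiT factors). Of 7 further v-ATPase isoforms 0 were higher and 2 lower.

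In microglia, some lysosomal genes rose in EAE and as many fell. Cd63, a tetraspanin of late endosomes and lysosomes, Npc2, the alpha-galactosidase Gla and 3 pump subunits (Atp6v0e, Atp6v1f and Atp6v1d) rose, whereas the sulfatase Arsb, the glycosidases Manba and Hexa, the pump subunits Atp6v0b and Atp6v1e1 and the transcription factor Tfe3 fell. This is 6 higher and 6 lower of 48, against 6.13% and 5.86% of all genes (12% together), and against 16% and 12.9% of genes with a mean of at least 1 log2 FPKM, where 47 of the members lie. At an adjusted p under 0.05 there were 4 higher and 2 lower, against 2.37% and 1.56% of all genes and, in both directions together, 10.4% of genes with a mean of at least 1. EAE-vehicle and naive libraries did not overlap for 4 members above and 3 below (2.93% and 2.33% of all genes).

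By role, 1 of 22 hydrolases rose and 3 fell (median log2 fold change -0.01, range -2.19 to 2.37), 2 of 8 membrane genes rose and 0 fell (median 0.17), and 3 of 16 v-ATPase genes rose and 2 fell (median 0.15). The median over all genes tested was -0.02, and over genes with a mean of at least 1 it was 0.02. The mean of the 22 hydrolases was 5.75 to 6.51 log2 FPKM in the 4 naive libraries and 5.94 to 6.35 in the 6 EAE-vehicle libraries, and that of the v-ATPase genes 6.52 to 6.71 and 6.47 to 6.83. Both groups overlapped in these means.

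**Figure D2:**
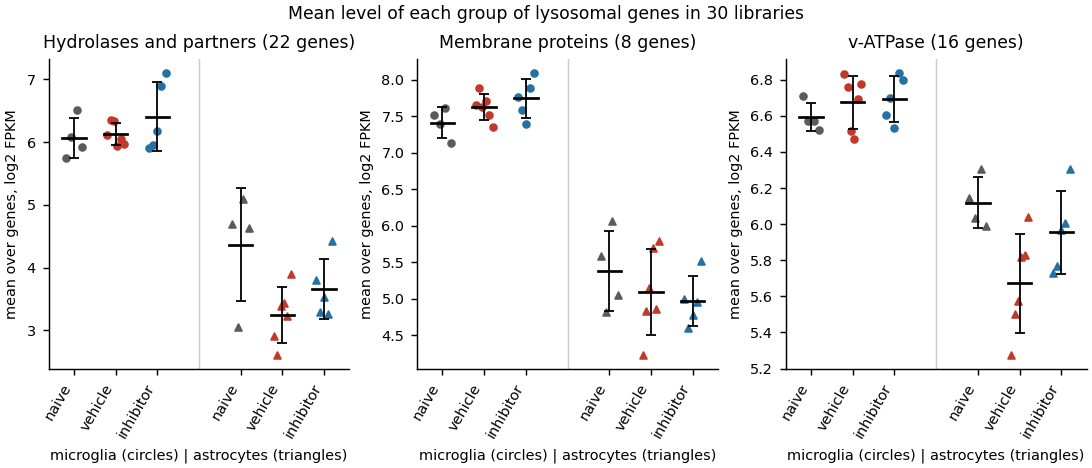
Mean log2 FPKM over the hydrolases, the membrane proteins and the v-ATPase genes in each of the 30 libraries, by cell type and group, with bars at the group mean and SD. The microglia groups overlap in all 3 panels, and the EAE-vehicle astrocytes reach the lowest values, 2.60 for the hydrolases and 5.27 for the v-ATPase.

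Gla (chrX:134588149-134601125, minus strand), which removes terminal alpha-galactose from glycolipids and is lost in Fabry disease, read 1.33, 1.60, 0.43 and 1.61 log2 FPKM in naive microglia. In the 6 EAE-vehicle libraries it ran from 1.77 through a median of 4.02 to 4.80, all above the naive libraries. The log2 fold change was 2.37 ± 0.55 (SE, adjusted p 0.0243), and 1.40 with the offset of 4. Only 2 of the 4 naive libraries were above the undetected stretch for Gla. Arsb (chr13:93771630-93943016, plus strand), the sulfatase that acts on dermatan and chondroitin sulfate, went the other way: it read 5.59, 5.64, 6.97 and 5.41 in naive libraries and 2.54 to 4.34, median 3.86, in EAE-vehicle libraries. The log2 fold change was -2.19 ± 0.48 (SE, adjusted p 0.0157), with no overlap.

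The remaining hydrolase calls were smaller. Manba, beta-mannosidase, read 4.18, 4.05, 4.55 and 6.15 in naive microglia against 2.37 to 4.86, median 3.77, with a log2 fold change of -1.08 (adjusted p 0.311) that was -0.60 and no longer called without naive library 4. Hexa, the alpha subunit of beta-hexosaminidase, read 8.95, 9.22, 9.54 and 8.66 against 8.23 to 9.01, median 8.43, and fell by 0.60 (adjusted p 0.329). Neither gene separated the groups, and Hexa was no longer called in 8 of 15 fits without 1 library.

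Cd63 (chr10:128900989-128912822, plus strand) showed the firmest change of any member. Naive microglia read 8.37, 8.36, 8.26 and 8.97 log2 FPKM, and the 6 EAE-vehicle libraries 9.33 to 10.16 with a median of 9.92. All EAE-vehicle libraries were above all naive ones, with a log2 fold change of 1.37 ± 0.21 (SE, adjusted p 0.0011) and an exact permutation p of 0.0048, the smallest that 4 against 6 libraries allow. Npc2 (chr12:84754562-84773152, minus strand) hands cholesterol to Npc1 inside the lumen. It read 8.13, 7.98, 7.78 and 7.36 in naive libraries and 8.17 to 8.96, median 8.63, in EAE-vehicle libraries, a log2 fold change of 0.81 ± 0.20 (SE, adjusted p 0.0318). With quality weights it was 0.51 and not called. Npc1 itself had a log2 fold change of 0.25 and was not called.

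Lamp1 and Lamp2, the glycoproteins that make up much of the limiting membrane, were close to level in microglia. Lamp1 read 8.98, 9.21, 9.26 and 9.60 in naive libraries and 8.83 to 9.51, median 9.12, in EAE-vehicle libraries (log2 fold change -0.15 ± 0.23, SE). Lamp2 read 8.26, 8.17, 8.00 and 7.35 against 7.73 to 8.35, median 8.04 (0.10 ± 0.24, SE). Cd68 lay at 10.38, 10.03, 10.13 and 10.73 in naive libraries and at 9.60 to 9.89, median 9.78, in EAE-vehicle libraries. These groups did not overlap (log2 fold change -0.55 ± 0.16, SE), but the difference was under the 1.5-fold cutoff.

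Within the pump, Atp6v0e, the small e subunit of V0, read 7.87, 7.11, 6.79 and 5.05 in naive microglia and 7.65 to 8.26, median 8.10, in EAE-vehicle microglia (log2 fold change 1.32 ± 0.38, SE, adjusted p 0.0790). Without naive library 4 the value was 0.77 and still called, and naive library 1 lay within the EAE-vehicle range. Atp6v1f, the F subunit of V1, read 7.71, 7.79, 8.04 and 8.53 against 8.52 to 9.02, median 8.62 (0.69 ± 0.17, SE, adjusted p 0.0322), where 1 naive library reached the lowest EAE-vehicle value. The V1 subunit D, Atp6v1d, rose by 0.65 (adjusted p 0.303).

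Atp6v0b, the c'' proteolipid of the V0 ring, read 8.97, 8.95, 9.12 and 9.10 in naive libraries and 7.97 to 8.67, median 8.43, in EAE-vehicle libraries, and fell by 0.65 ± 0.17 (SE, adjusted p 0.0498) with no overlap. Atp6v1e1, the E subunit of the V1 stalk, read 6.62, 6.14, 7.09 and 7.65 against 5.52 to 6.48, median 6.33, and fell by 0.66 (adjusted p 0.288), a call lost in 4 of 15 fits without 1 library. Tcirg1 read 7.32, 8.26, 8.99 and 8.15 against 6.94 to 7.79, median 7.07, and its log2 fold change of -0.95 ± 0.47 (SE) was not called. Atp6v0d2 stayed near the floor, at 0.02 to 0.34 in naive libraries and 0.07 to 1.97, median 0.15, in EAE-vehicle libraries. Pump genes were thus called in both directions, 3 of 16 higher and 2 lower. The shares called were 6.13% and 5.86% of all genes, and 16% and 12.9% of genes with a mean of at least 1.

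Tfe3 (chrX:7762560-7775202, plus strand) read 4.89, 6.23, 7.40 and 5.66 log2 FPKM in naive microglia and 4.01 to 4.92, median 4.56, in EAE-vehicle microglia, and fell by 1.55 ± 0.46 (SE, adjusted p 0.0881). The groups overlapped by 1 naive library. Tfeb was lower in level, at 3.44, 1.97, 3.70 and 2.79 in naive libraries and 0.84 to 2.86, median 2.62, in EAE-vehicle libraries, and its log2 fold change of -0.66 was not called.

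**Figure D3:**
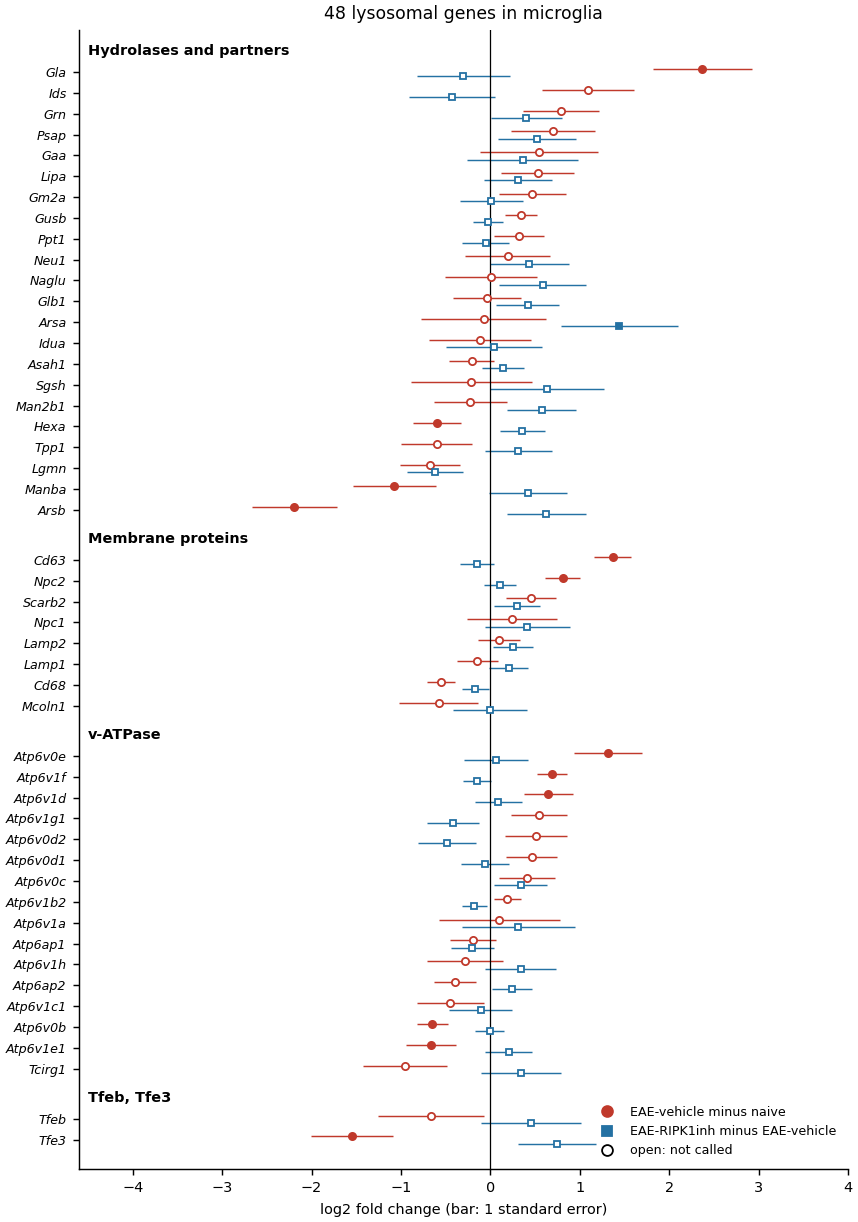
Log2 fold change with 1 standard error for the 48 members in microglia, for EAE-vehicle minus naive (circles) and EAE-RIPK1inh minus EAE-vehicle (squares), filled where called and ordered within each group by the first comparison. Gla, Cd63 and Atp6v0e stand highest and Arsb and Tfe3 lowest for EAE, and Arsa carries the sole filled square.

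Other changes in the sorted microglia moved with these. All 10 microglia markers fell in EAE-vehicle microglia (8 at an adjusted p under 0.05), from library means of 10.00 to 10.62 in naive mice to 7.18 to 7.92. Of 9 monocyte and neutrophil markers 3 rose, with library means of 1.94 to 6.45 in naive and 2.55 to 6.58 in EAE-vehicle libraries. Their part in the lysosomal results was not tested. In bulk libraries fewer cells of a type and less RNA per cell cannot be told apart. Of the members called here, Arsb, Manba, Hexa, Atp6v0b and Atp6v1e1 are marked in the deposited annotation as confounded with an overlapping gene. They are all the members that fell except Tfe3, and no member that rose carries the mark. Of the 48 members 16 carry it, as do 15717 of the 30952 genes in the table. The part of overlapping genes in these changes was not tested.

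The other lysosomal lists were also mixed in direction in EAE microglia. Of 20 further hydrolases 5 rose and 3 fell, led by Acp5, the tartrate-resistant acid phosphatase (log2 fold change 3.77, adjusted p 3.69e-04). Of 13 cathepsins 2 rose and 3 fell, with Ctsc, which activates serine proteases, at 1.34 (adjusted p 0.0220) and Ctsf at -1.82 (adjusted p 7.73e-04). Of 20 further membrane genes 2 rose and 3 fell, with the cation channel Tpcn2 at 1.76 (adjusted p 0.0550) and the sialomucin Cd164 at -1.38 (adjusted p 7.03e-04).

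Of the 14 nutrient-sensing genes 1 rose, the Ragulator subunit Lamtor2 (1.37, adjusted p 0.0225), and 1 fell, the mTORC1 scaffold Rptor (-1.75, adjusted p 0.0177). Of the 7 further v-ATPase isoforms 0 rose and 1 fell, Atp6v0a1, the a1 subunit (-0.81, adjusted p 0.361).

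In EAE astrocytes 11 of 48 members fell, 9 of them hydrolases, and 1 rose, against 2.69% and 4.01% of all genes (6.71% together) and 6.93% and 9.02% of genes with a mean of at least 1 log2 FPKM. Of the 22 hydrolases 9 fell and 0 rose: Tpp1, Lipa, Gm2a, Glb1, Manba, Asah1, Arsb, Psap and Ppt1. They include enzymes of peptide, neutral lipid, galactoside, mannoside, ceramide and sulfate breakdown and the sphingolipid activators Gm2a and Psap. Of these hydrolases Glb1, Manba, Arsb and Ppt1 are marked as confounded with an overlapping gene. Cd63 of the membrane group and Atp6ap2 of the pump fell as well, and Cd68 alone rose. At an adjusted p under 0.05 there were 0 higher and 2 lower, Gm2a and Atp6ap2, against 0.342% and 0.238% of all genes and, in both directions together, 1.57% of genes with a mean of at least 1.

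The median log2 fold change was -1.11 for hydrolases (range -2.97 to 0.46), -0.72 for membrane genes and -0.40 for v-ATPase genes, beside 0.03 over all genes tested. Over genes with a mean of at least 1 log2 FPKM it was -0.09. Of the 48, 10 had a log2 fold change above 0 and 38 below. Of all genes 56.7% were above 0, but the median over genes with a mean of at least 1 was below 0. The mean of the 22 hydrolases read 4.69, 3.05, 5.09 and 4.63 log2 FPKM in the naive astrocytes and 2.60 to 3.90, median 3.31, in the EAE-vehicle astrocytes. Naive library 2, which detected 8815 genes, lay among the EAE-vehicle libraries and the other three naive libraries above them. EAE-vehicle and naive libraries did not overlap for 6 members below and 0 above (1.28% and 1.02% of all genes). Without naive library 1 the number of calls was 7, all of them lower.

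Gm2a (chr11:55098115-55113029, plus strand), the activator that lifts GM2 ganglioside out of the membrane for hydrolysis, read 8.49, 9.10, 8.69 and 8.36 log2 FPKM in naive astrocytes. In EAE-vehicle astrocytes it ran from 5.50 through a median of 6.43 to 7.03, all below the naive libraries. The log2 fold change was -2.32 ± 0.37 (SE, adjusted p 0.0069), with an exact permutation p of 0.0048. Its adjusted p was the smallest of the 48 members in this comparison.

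Other hydrolases that fell had a wider spread. Tpp1, tripeptidyl peptidase, read 6.96, 6.33, 7.18 and 7.10 in naive astrocytes and 1.24 to 6.70, median 4.02, in EAE-vehicle astrocytes (log2 fold change -2.97 ± 1.09, SE, adjusted p 0.444). Lipa, which hydrolyses cholesteryl esters and triglycerides, read 4.81, 2.51, 4.84 and 3.42 against 0.01 to 3.77, median 0.85 (-2.38 ± 0.89, SE, adjusted p 0.467). Glb1, beta-galactosidase, read 4.15, 1.21, 3.81 and 4.60 against 0.06 to 2.93, median 0.88 (-2.25 ± 0.78, SE, adjusted p 0.383). Naive library 2, at 1.21, was within its undetected stretch for Glb1. EAE-vehicle and naive libraries overlapped for all 3 genes, none passed the adjustment, and with the offset of 4 Lipa was at -1.35.

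Manba was at 3.57, 1.90, 1.23 and 2.84 in naive astrocytes and at 0.03 to 0.74, median 0.16, in EAE-vehicle astrocytes (log2 fold change -2.14, adjusted p 0.351). Only 3 of the 6 EAE-vehicle libraries had a signal above their undetected stretch for it. Asah1, acid ceramidase, read 6.74, 4.88, 6.99 and 6.46 against 3.72 to 4.97, median 4.22 (-1.97, adjusted p 0.254). Psap, the precursor of the saposins, read 7.81, 6.15, 7.80 and 7.80 against 5.28 to 6.73, median 6.36 (-1.17, adjusted p 0.500). Arsb fell by 1.85 (adjusted p 0.696) and Ppt1, a thioesterase that removes palmitate from proteins, by 0.65 (adjusted p 0.693).

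Cd63 read 8.60, 8.75, 9.01 and 9.18 in naive astrocytes and 7.33 to 8.27, median 7.88, in EAE-vehicle astrocytes, without overlap (log2 fold change -1.06 ± 0.27, SE, adjusted p 0.127). Lamp1 read 8.94, 7.71, 9.05 and 8.64 against 6.92 to 8.56, median 7.74 (-0.80 ± 0.58, SE), and Lamp2 6.97, 5.71, 7.15 and 6.41 against 3.19 to 7.13, median 6.36 (-0.63 ± 0.66, SE). Neither was called.

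Cd68 (chr11:69664213-69666153, minus strand) was listed at 0.00 in naive libraries 1 and 4 and read 2.32 and 2.95 in the others, and it ran from 0.17 to 5.53, median 4.19, in EAE-vehicle astrocytes. Its log2 fold change was 2.33 ± 1.00 (SE, adjusted p 0.622), it was no longer called in 5 of 15 fits without 1 library, and the groups overlapped. The sorted astrocytes gained markers of other cells in the same libraries. All 8 T cell markers in the table were higher (6 called) and library means went from 0.17 to 0.98 in naive to 0.94 to 5.63 in EAE-vehicle mice, and those of the 9 monocyte and neutrophil markers from 0.21 to 1.02 to 1.68 to 4.73.

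The 7 oligodendrocyte markers went from library means of 5.58 to 6.81 to 6.45 to 9.58, the 10 microglia markers from 0.87 to 2.40 to 1.08 to 3.45, and the 8 astrocyte markers from 9.31 to 9.64 to 8.30 to 9.27, where Gfap rose and 4 others fell. The part of these shifts in the astrocyte results was not tested.

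In the pump, Atp6ap2 (chrX:12587801-12617049, plus strand), the accessory protein also known as the prorenin receptor, read 6.62, 6.43, 7.25 and 6.43 in naive astrocytes and 2.65 to 5.16, median 4.38, in EAE-vehicle astrocytes. All EAE-vehicle libraries were below all naive ones (log2 fold change -2.41 ± 0.48, SE, adjusted p 0.0372, exact permutation p 0.0048). No other of the 16 v-ATPase genes was called. Atp6v0b read 7.14, 6.97, 7.46 and 7.08 against 0.19 to 6.69, median 5.99, so that the groups did not overlap. Its log2 fold change of -2.07 was not called. EAE-vehicle library 1, at 0.19, was within its undetected stretch, and the rest were at 5.19 or above. Tcirg1 read 3.70, 0.03, 5.73 and 2.54 against 0.10 to 3.99, median 3.39 (-0.46 ± 1.28, SE), and Atp6v0d2 0.06 to 0.15 against 0.00 to 3.21, median 0.08.

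Tfe3 read 4.42, 1.28, 3.93 and 4.15 in naive astrocytes and 1.18 to 5.24, median 3.02, in EAE-vehicle astrocytes (log2 fold change -0.46). Naive library 2, at 1.28, was within its undetected stretch for Tfe3. Tfeb read 0.22, 0.01, 4.03 and 0.00 against 0.00 to 3.04, median 1.19 (0.23). Neither was called, and Tfeb had a signal in fewer than 8 of the 15 astrocyte libraries.

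**Figure D4:**
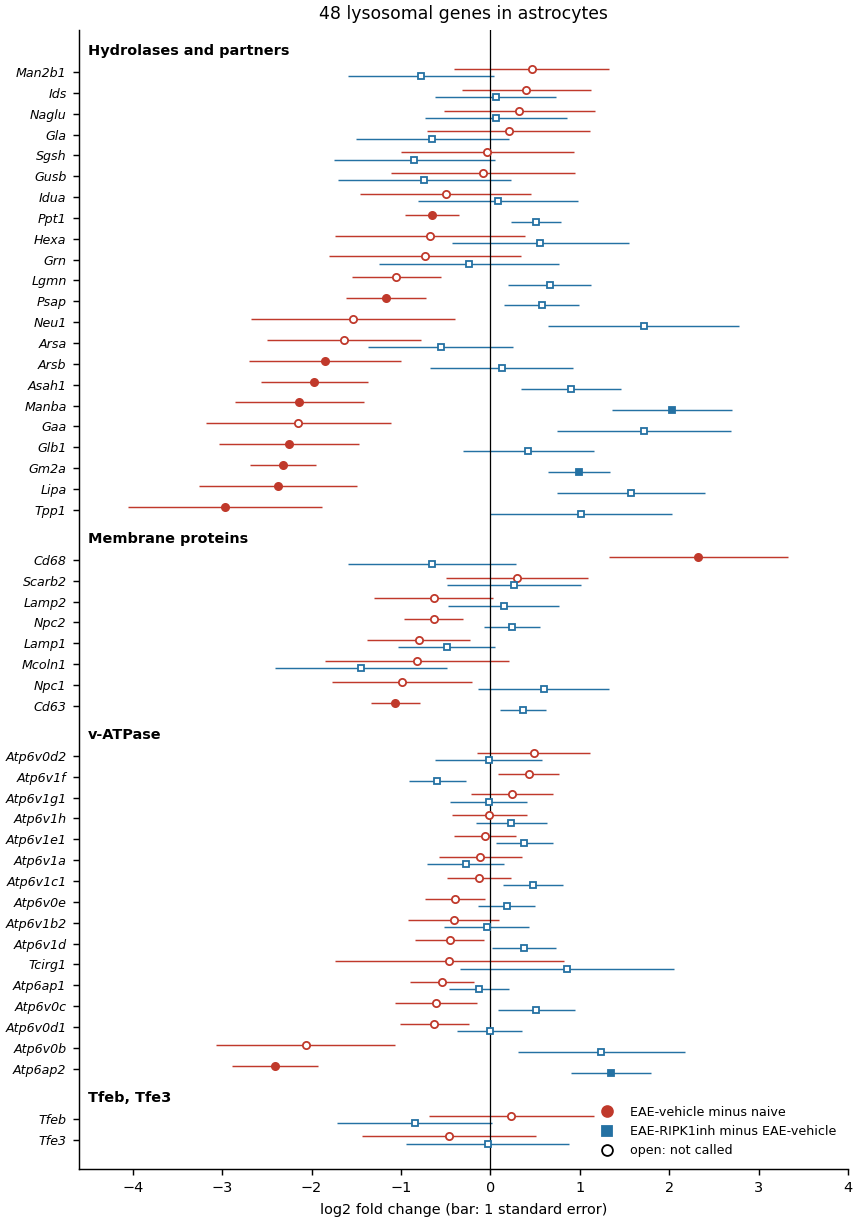
Log2 fold change with 1 standard error for the 48 members in astrocytes, drawn as for microglia. For EAE-vehicle minus naive 9 of the 22 hydrolases are filled and all lie below 0, and Manba, Gm2a and Atp6ap2 are filled above 0 for EAE-RIPK1inh minus EAE-vehicle.

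Further lysosomal genes in EAE astrocytes gave 0 rises and 4 falls among 20 hydrolases and 1 rise and 8 falls among 20 membrane genes. The rise was Laptm5, a protein of blood cell lysosomes (4.44, adjusted p 0.0420), and the deepest fall Ctns, the cystine exporter (-4.23, adjusted p 0.0079). Among 13 cathepsins 2 rose and 1 fell, with Ctsw of cytotoxic lymphocytes at 4.98 (adjusted p 0.0420) and Ctsf at -2.97 (adjusted p 0.0275). Of the 14 nutrient-sensing genes only Flcn was called (-2.63, adjusted p 0.351), and of the 7 further v-ATPase isoforms 0.

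The EAE effect differed between the cell types for 14 members, 13 more positive in microglia and 1, Cd68, more positive in astrocytes. This compares with 4.97% and 3.71% of all genes (8.68% together), and with 10.3% and 7.03% of genes with a mean of at least 1, and 2 members, both more positive in microglia, passed an adjusted p under 0.05, against 0.604% and 0.378%. Cd63 had log2 fold changes of 1.37 in microglia and -1.06 in astrocytes, a difference of 2.43 ± 0.34 (SE, adjusted p 1.75e-04). Gm2a had 0.47 and -2.32, a difference of 2.79 ± 0.53 (SE, adjusted p 0.0052). Cd63 therefore moved in opposite directions at the cutoff, whereas Gm2a was called in astrocytes only and its difference was tested directly.

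Npc2, with 0.81 and -0.64, differed by 1.45 (adjusted p 0.0517), and Atp6ap2, with -0.40 and -2.41, by 2.01 (adjusted p 0.0571). For Cd68 the values were -0.55 and 2.33 and the difference -2.88 (adjusted p 0.244). The other called members were the hydrolases Lipa, Gaa, Glb1, Psap, Asah1 and Ppt1 and the pump subunits Atp6v0e, Atp6v1d and Atp6v0d1, with differences of 0.97 to 2.90.

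**Figure D5:**
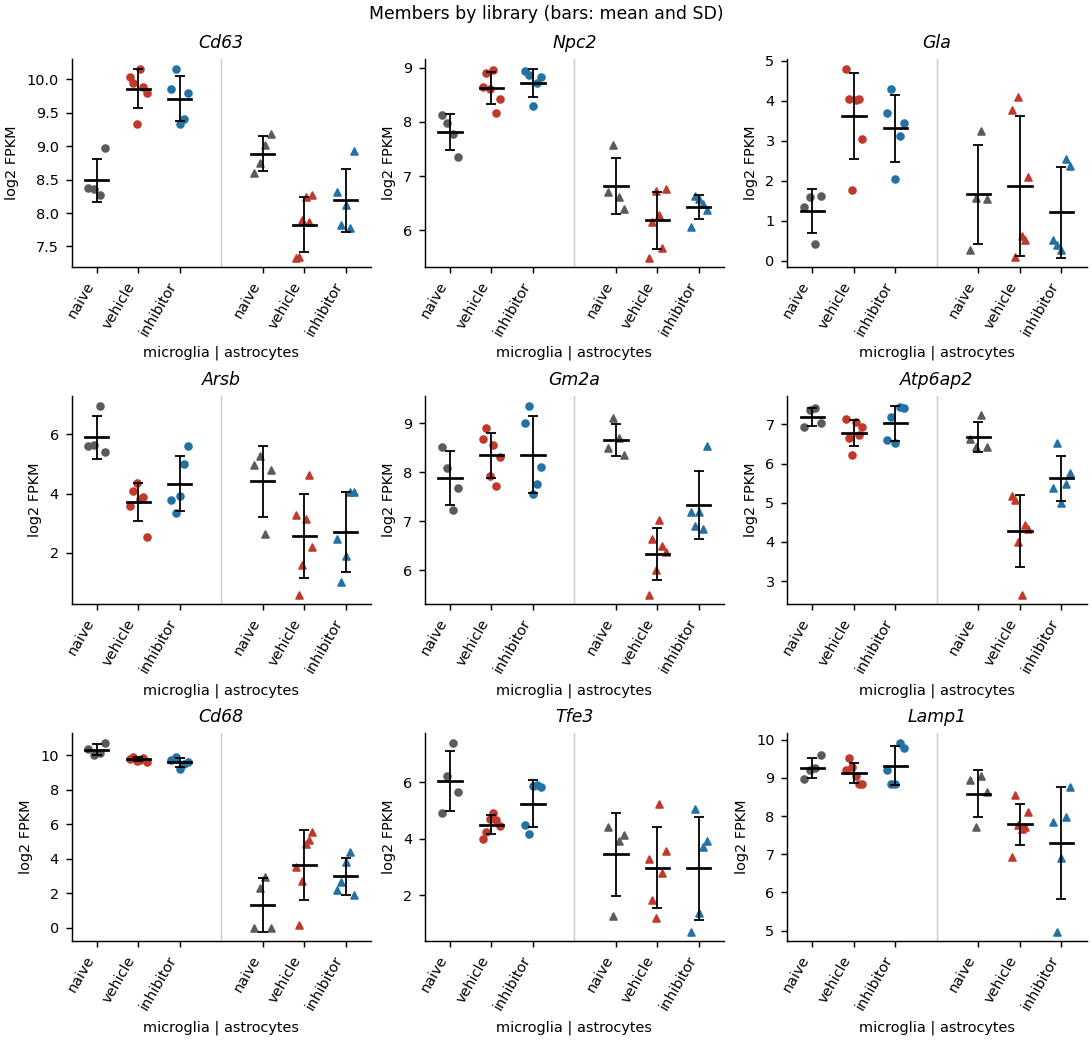
Log2 FPKM of 9 members in each library, microglia as circles and astrocytes as triangles, in naive, EAE-vehicle and EAE-RIPK1inh mice, with bars at the mean and SD. Cd63 stands higher in EAE-vehicle microglia and lower in EAE-vehicle astrocytes than in the naive libraries of the same cell type, Gm2a and Atp6ap2 are lower in EAE-vehicle astrocytes, and Lamp1 is close to level in microglia.

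The comparison of EAE-RIPK1inh with EAE-vehicle asks what the inhibitor changed in mice with the disease, and it shares the EAE-vehicle libraries with the comparison above, so that a low or high value there enters both with opposite sign. In microglia 1 of 48 members rose and 0 fell, against 1.06% and 0.701% of all genes (1.76% together). Among genes with a mean of at least 1 log2 FPKM, 2.02% rose and 1.62% fell. Of the members 0 passed the adjustment, against 0.00345% of all genes. Arsa, which desulfates sulfatide of myelin, read 2.10, 1.98, 4.24, 4.33 and 4.45 log2 FPKM in EAE-RIPK1inh microglia and 1.19 to 2.84, median 2.04, in EAE-vehicle microglia (log2 fold change 1.44 ± 0.65, SE, adjusted p 0.930). Libraries 1 and 2 lay within the EAE-vehicle range, and in 8 of the 15 fits without 1 library Arsa was no longer called. It is also marked as confounded with an overlapping gene.

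No member called for EAE in microglia was called between the EAE groups. Cd63 read 9.86, 10.16, 9.33, 9.41 and 9.80 in EAE-RIPK1inh microglia, Npc2 8.94, 8.86, 8.29, 8.73 and 8.83, and Gla 3.69, 4.30, 2.04, 3.11 and 3.43, all above the naive microglia. Arsb read 3.78, 3.35, 3.92, 5.01 and 5.62, and Tfe3 4.49, 4.17, 5.86, 5.89 and 5.82, both with libraries within the naive range. The membrane proteins and the remaining named genes were not called either. Lamp1 read 9.22, 8.85, 8.84, 9.92 and 9.77 (log2 fold change 0.20 ± 0.22, SE) and Lamp2 8.19, 8.46, 7.52, 8.54 and 8.75 (0.25 ± 0.22, SE). For Cd68 the values were 9.73, 9.92, 9.22, 9.51 and 9.60 (-0.17 ± 0.15, SE), for Tcirg1 6.66, 6.10, 7.91, 8.60 and 8.59 (0.34 ± 0.44, SE), which lie on both sides of the EAE-vehicle range, and for Tfeb 2.79, 0.84, 3.82, 3.97 and 2.40.

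The EAE-RIPK1inh microglia libraries were not alike. The hydrolase mean read 5.90, 5.95, 6.18, 6.89 and 7.10 log2 FPKM in libraries 1 to 5. The difference between GC-rich and GC-poor genes, in log2 units, read -0.36, -0.63, 0.73, 0.53 and 0.55 in the same libraries. With limma's library quality weights 18 members were called, 16 higher and 2 lower, where 2730 of 28958 genes were called. With the slope on GC content removed in each library the count stayed at 1.

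In astrocytes 3 of 48 members rose with the inhibitor and 0 fell, against 1.84% and 1.18% of all genes (3.02% together). Among genes with a mean of at least 1 log2 FPKM, 3.52% rose and 2.7% fell. Of the members 0 passed the adjustment, as did 0 of all 30718 genes. Manba read 3.91, 0.45, 0.72, 3.42 and 2.90 log2 FPKM in EAE-RIPK1inh astrocytes, where EAE-vehicle had a median of 0.16 (log2 fold change 2.03 ± 0.67, SE, adjusted p 0.840). Atp6ap2 read 5.37, 6.53, 4.99, 5.49 and 5.76 against a median of 4.38 (1.35 ± 0.45, SE, adjusted p 0.840). Gm2a read 7.18, 6.90, 7.19, 6.85 and 8.54 against a median of 6.43 (0.99 ± 0.34, SE, adjusted p 0.840).

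The same 3 genes fell in EAE-vehicle against naive astrocytes, with log2 fold changes of -2.14, -2.41 and -2.32 in that order, and the shared EAE-vehicle libraries enter both values. EAE-RIPK1inh astrocytes remained below the naive mean for Gm2a (7.33 ± 0.69 against 8.66 ± 0.33, SD) and Atp6ap2 (5.63 ± 0.57 against 6.68 ± 0.39, SD), a gap for which no test was run. The groups EAE-RIPK1inh and EAE-vehicle overlapped for all 3 genes, and Manba is marked as confounded with an overlapping gene. The median log2 fold change was 0.47 for hydrolases, 0.20 for membrane genes and 0.21 for v-ATPase genes. It was -0.03 over all genes tested and 0.02 over genes with a mean of at least 1.

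The other members named throughout were not called in astrocytes with the inhibitor. Lamp1 read 7.84, 4.97, 6.91, 7.98 and 8.76 (log2 fold change -0.49 ± 0.54, SE), Lamp2 6.20, 5.44, 5.52, 5.73 and 7.50 (0.15 ± 0.62, SE), and Cd68 2.17, 2.68, 3.81, 4.40 and 1.89 (-0.65 ± 0.94, SE). Tcirg1 read 1.51, 0.60, 4.45, 4.10 and 6.30, Tfe3 0.71, 5.06, 1.35, 3.70 and 3.93, and Tfeb 0.00, 0.00, 2.24, 0.00 and 0.01. T cell marker means ran from 0.84 to 5.24 in these libraries, close to the range in EAE-vehicle astrocytes, and their part was not tested.

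The spread within groups differed between the cell types. The median SD over the 22 hydrolases was 0.74, 0.40 and 0.77 log2 units in naive, EAE-vehicle and EAE-RIPK1inh microglia and 1.22, 1.30 and 1.33 in the astrocyte groups. Over the v-ATPase genes it was 0.57, 0.28 and 0.35 in microglia and 0.39, 0.59 and 0.67 in astrocytes. Of the 48 members 12 were called in no comparison: Ids, Idua, Neu1 and Sgsh among the hydrolases, Lamp1, Npc1 and Scarb2 in the membrane, and Atp6v0c, Atp6v0d2, Atp6v1a, Atp6v1b2 and Atp6v1h in the pump.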

How the data were processed

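RNA of sorted spinal cord microglia and astrocytes was sequenced in 30 libraries after oligo(dT) capture, full-length cDNA amplification and Tn5 fragmentation. The authors deposited log2 FPKM values that are quantile-normalized over all 30 libraries. The methods of the study name OmicSoft Array Studio for its cultured cell libraries, and the aligner for the sorted cells, the offset of the logarithm and the annotation release are not given in the sources used here. Depth is unknown, so no counting interval was computed and a low fold change depends on the offset. No column of the authors' comparisons was in the table. Positions of all 48 members equalled GRCm38. The annotation marks 16 members as confounded.

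Comparisons used limma 3.58.1 (lmFit, eBayes with trend) under R 4.3.3. The 3 groups of each cell type shared a fit of every gene that varied (28958 in microglia, 30718 in astrocytes), and 6 groups shared a fit of 30952 genes for comparisons between cell types. A call needs a fold change over 1.5 and an unadjusted p under 0.05. The study gives that cutoff for the sorted cells too and a paired test in its methods, but the labels pair no libraries across groups, so the fits are unpaired. Exact permutation tests were two-sided over all splits of libraries. The fits were tested on simulated data.

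The 48 members and all lists were chosen with earlier results of these data known. Genes named are Lamp1, Lamp2, Cd68, Tcirg1, Atp6v0d2, Tfeb and Tfe3, plus up to 4 called members with the largest changes per group and cell type in EAE (mean at least 1), every called member for the inhibitor, the 3 largest in each direction between naive cell types, up to 4 with the smallest p for the difference in EAE effect, and the largest called rise and fall of each other lysosomal list, of which some are not reported here. The remaining called members, Npc1 and the most abundant members were named after their values were seen. Atp6v1b1, Atp6v1g3 and Trac were not found in the table by name. Alternatives were a larger offset of 4, centring on library medians, a mean of at least 1, no variance trend, quality weights, the replicate number as a block, each library left out, and, added after seeing the data, removal of the slope on GC content, a block that takes microglia and astrocyte libraries of the same group and number as 1 mouse, and leaving out the microglia libraries with the fewest and the most genes.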

Additional observations from a re-analysis of the deposited data

Results flagged for a closer look

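The values of a member or of a list mean were examined in 129 groups. In 14, all of them of members, a single library stood apart by a gap to the nearest library that was large beside the range of the group. For normally distributed values chance alone flags about 1 in 20 groups. That rate need not hold where most libraries are undetected, as for Tfeb and Atp6v0d2 in EAE-RIPK1inh astrocytes. In naive microglia these were Arsb in library 3 (6.97 log2 FPKM), Lgmn in library 3 (12.43) and Cd63 in library 4 (8.97). In EAE-vehicle microglia they were Hexa in library 2 (9.01), Atp6v1e1 in library 3 (5.52) and Tfeb in library 1 (0.84), and in EAE-RIPK1inh microglia Atp6v0b in library 1 (8.95). In naive astrocytes they were Tfe3 in library 2 (1.28, within the undetected stretch of that library) and Tfeb in library 3 (4.03). In EAE-vehicle astrocytes they were Lamp2 in library 1 (3.19) and Atp6v0d2 in library 6 (3.21). In EAE-RIPK1inh astrocytes they were Atp6v0d2 in library 1 (2.58), Tfeb in library 3 (2.24) and Gm2a in library 5 (8.54). Without that last library the inhibitor log2 fold change of Gm2a was 0.69 and still called.

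The EAE effect differed between the cell types by the interaction term at an adjusted p under 0.05 for Gm2a (2.79 log2 units more positive in microglia, adjusted p 0.0052) and Cd63 (2.43, adjusted p 1.75e-04).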

How the results depend on the processing

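Of 914 values of the named members under the alternatives, 860 kept their direction and their side of the cutoff, 54 kept the direction and were no longer called, and 0 reversed. The number of members called between EAE-RIPK1inh and EAE-vehicle microglia went from 1 to 18 with library quality weights and to 0 to 5 with 1 library left out. It was 0 without EAE-RIPK1inh library 3, 4 or 5, EAE-vehicle library 2, 4 or 5 or naive library 1 or 2, it was 2 without EAE-RIPK1inh library 1 or naive library 3, and 5 without EAE-RIPK1inh library 2. In astrocytes the inhibitor count of 3 ran from 3 to 5, with 5 without EAE-RIPK1inh library 3 or 4 or EAE-vehicle library 5. With 1 library left out, the EAE count of 12 in astrocytes ran from 7, without naive library 1, to 15, and that of 12 in microglia from 9 to 14. With quality weights the EAE count in astrocytes was 17, 1 higher and 16 lower, where 3698 of 30718 genes were called. The counts between naive cell types (17 to 25 with 1 library left out) and for the difference in EAE effect (11 to 16) stayed within 1.5 times. With quality weights the count between naive cell types was 26, where 6863 of 30952 genes were called. The cause of these moves was not tested. Whether replicate numbers pair samples of different groups cannot be told from these values. Same-numbered libraries deviated together with correlations of -0.11 to 0.24 (median 0.07) in microglia and -0.17 to 0.09 (median 0.02) in astrocytes. For libraries of different number the medians were -0.01 and -0.02. With the replicate block 12 members were called for EAE in microglia and 14 in astrocytes, 1 and 4 for the inhibitor, 19 between naive cell types and 14 for the difference. With microglia and astrocyte libraries of the same group and number taken as 1 mouse, which the labels do not say, 22 and 15 were called in these last comparisons. With the offset of 4, values moved by over 1.5 times and stayed called for Gla (1.40) in EAE microglia and Cd68 (1.43), Glb1 (-1.29) and Lipa (-1.35) in EAE astrocytes. The same held for the inhibitor values of Arsa in microglia (0.94) and Manba in astrocytes (0.93). Npc2 in EAE microglia was not called with quality weights (0.51), nor was Tfeb between naive cell types with the offset of 4 (0.76). The unknown depth limits all low values, such as Manba, Glb1 and Lipa in astrocytes.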
